A study of Caenorhabditis elegans with 2 samples.

Results

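The 60S, or large, subunit of the cytosolic ribosome is built in C. elegans from proteins whose genes carry the symbols rpl (ribosomal protein, large subunit) and rla (the acidic stalk proteins). Every protein-coding gene of the Ensembl annotation with one of these prefixes followed by a number was taken, which gave 50 members of 19973 protein-coding genes, 47 of them rpl and 3 of them rla. Large-subunit genes under other symbols, such as the ubiquitin fusion gene ubq-2, were therefore not members. AHA-1 occupancy of their promoters was read from peak lists of chromatin immunoprecipitation followed by sequencing (ChIP-seq). There was 1 group of 2 biological replicates: whole L1 larvae of mixed sex of strain OP124, genotype unc-119(ed3) III; wgIs124, in which an inserted transgene supplies AHA-1 tagged with enhanced green fluorescent protein. The age in hours was given as unknown, and the growth of the animals was not described. No second strain, stage or treatment was profiled, so there was no contrast between conditions and no test of one. Both replicates came from 1 strain with 1 insertion, and whole animals were used, so the lists average over all larval tissues and hold no RNA values from which tissue markers could be checked.

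AHA-1 is the C. elegans counterpart of mammalian ARNT, a basic helix-loop-helix protein with PAS domains. It binds DNA as a dimer with other PAS proteins, among them HIF-1 and AHR-1. HIF-1 sites centre on ACGTG or GCGTG. The mammalian counterpart of AHR-1 binds sites that contain GCGTG, so this word does not tell the partners apart. Ribosomal protein genes are among the most highly transcribed genes of growing cells, and their proteins are needed in equal amounts because each ribosome holds one copy of almost all of them. The acidic stalk proteins P1 and P2 are the exception, being present in more than a single copy, and the stalk recruits the elongation factors. Other proteins line the peptidyl transferase centre, where peptide bonds form, or the tunnel through which the nascent chain leaves.

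The authors' thresholded list kept the 530 strongest of 30000 regions called on the pooled replicates. Its weakest peak had a signal of 18.35, the next region that was left out had 18.34, and the median over the thresholded peaks was 26.85. The signal of a region is the authors' own value relative to a control and has no stated scale, so it was used to order regions within 1 list. A region was given to a gene when its summit lay between 1000 bp upstream and 200 bp downstream of any annotated start of that gene. The number of reads behind the lists is unknown, and no interval for counting error can be given.

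AHA-1 peaks were found at 19 of the 50 large-subunit promoters, or 38%, where 2.73% of all protein-coding genes had a thresholded peak. A further 24 members had a region only in the relaxed pooled list, which holds background as well as peaks, and 7 had none. In all, 43 members (86%) had some region, against 43.3% of all protein-coding genes. Some of the members below the threshold were close to it. Down to rank 1000 of the pooled list the count was 30 members, or 60%, against 4.61% of all protein-coding genes, so 11 members ranked between 531 and 1000. Just inside the threshold were rpl-24.2 (signal 18.79, rank 507) and rpl-29 (19.04, rank 496), and just outside it were rpl-24.1 (17.5, rank 573) and rpl-7A (16.98, rank 599). The median signal of the members with a region was 16.65, against 4.921 for all protein-coding genes with a region.

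**Figure D1:**
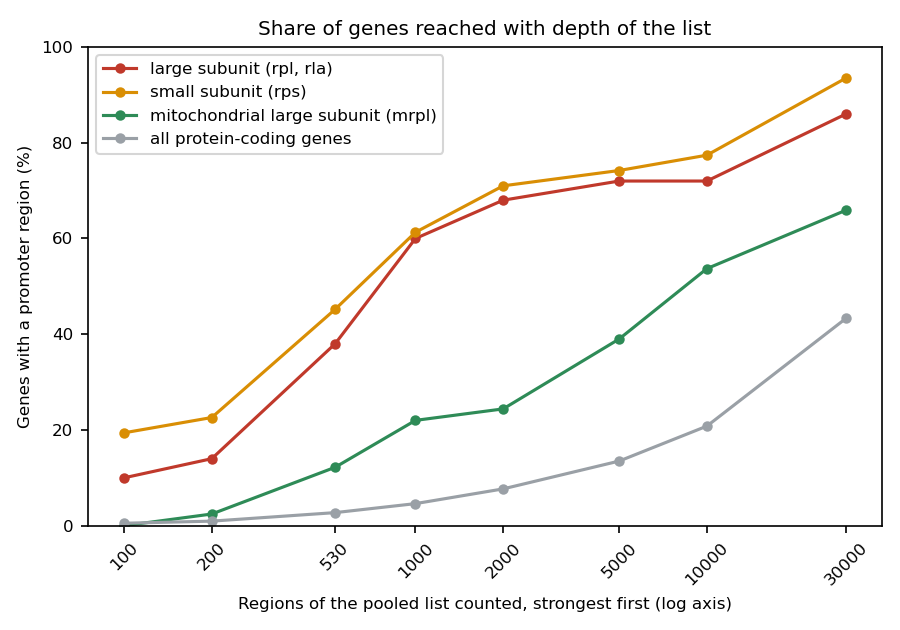
The share of genes with a promoter region (y axis, percent) is plotted against how many regions of the pooled list are counted, strongest first (x axis, log scale), for the 50 large-subunit genes, the 31 small-subunit genes, the 41 mitochondrial large-subunit genes and all 19973 protein-coding genes. The large-subunit line climbs to 38% at 530 regions and 60% at 1000 and then flattens, reaching 72% at 5000, whereas the line for all genes stands at 2.73%, 4.61% and 13.5% at these depths.

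The 4 strongest member peaks lay at rpl-3, rpl-15, rpl-35 and rpl-20 and were among the 20 strongest peaks of the list. The bases within 50 bp of each summit, 101 bases in all, are shown because these peaks shared short words that most of the weaker member peaks lacked. They were read from the ce11 genome sequence of RefSeq on the strand of the gene, from 5′ to 3′, with ACGTG or GCGTG in capitals wherever it occurs on either strand (CACGT or CACGC on the other strand).
rpl-3, chrIII:3867522-3867622, + strand: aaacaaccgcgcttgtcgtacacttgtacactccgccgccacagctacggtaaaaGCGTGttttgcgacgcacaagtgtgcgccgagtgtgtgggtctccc
rpl-15, chrIV:654873-654973, - strand: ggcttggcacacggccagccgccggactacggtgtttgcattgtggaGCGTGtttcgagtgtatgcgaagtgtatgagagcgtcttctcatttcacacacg
rpl-35, chrIII:7854635-7854735, + strand: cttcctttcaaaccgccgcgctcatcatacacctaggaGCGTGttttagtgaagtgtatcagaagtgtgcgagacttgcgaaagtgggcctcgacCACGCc
rpl-20, chrIV:4750020-4750120, - strand: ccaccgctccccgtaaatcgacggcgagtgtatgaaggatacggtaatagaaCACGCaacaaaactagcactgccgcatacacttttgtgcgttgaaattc

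Each of these windows held GCGTG with its centre within 10 bp of the summit, and each also held AGTGTA at least once on one strand or the other. The word AGTGTA was noticed in the sequences themselves and then counted in all windows. It occurred in these 4 member windows and in none of the other thresholded member windows (4 of 19, 21.1%), with 7 copies in all. Among the 358 thresholded promoter peaks without a member, 6.15% held AGTGTA, and in windows 400 bp to either side of the member summits 7.89% did. Both words together were found in 4 of 19 member peaks (21.1%) and in 5 of 358 other promoter peaks (1.4%). The members with both words had signals from 76.17 to 115.2. Because AGTGTA was picked from windows of member peaks, the member share and these signals follow in part from that choice. They cannot show an association of the words with member peaks or with strength. The other promoter peaks with both words had a median signal of 65.7 and ranged between 27.04 and 83.18. They lay at cox-5A, cdc-48.1, lin-9, tasp-1 with K01G5.10, and the small-subunit gene rps-1 with ifet-1.

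Of the next members in strength that could be shown, rpl-43 and rpl-23 also held GCGTG, and rpl-36, rpl-11.2 and rpl-5 held neither ACGTG nor GCGTG. Their windows are given in the same way, for contrast with the strongest peaks. Peaks whose window overlapped an annotated untranslated region, such as that of rpl-12, are not shown.
rpl-43, chrII:14154505-14154605, + strand: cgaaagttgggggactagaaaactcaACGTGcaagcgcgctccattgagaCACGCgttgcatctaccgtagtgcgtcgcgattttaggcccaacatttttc
rpl-23, chrIII:5706318-5706418, - strand: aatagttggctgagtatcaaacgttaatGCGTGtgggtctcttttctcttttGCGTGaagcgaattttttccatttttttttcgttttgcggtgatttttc
rpl-36, chrIII:7179784-7179884, + strand: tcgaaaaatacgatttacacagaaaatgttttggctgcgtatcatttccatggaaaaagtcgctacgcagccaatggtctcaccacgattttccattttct
rpl-11.2, chrX:2242930-2243030, - strand: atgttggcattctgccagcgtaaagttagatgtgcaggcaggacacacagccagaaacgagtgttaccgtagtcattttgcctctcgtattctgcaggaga
rpl-5, chrII:8569487-8569587, + strand: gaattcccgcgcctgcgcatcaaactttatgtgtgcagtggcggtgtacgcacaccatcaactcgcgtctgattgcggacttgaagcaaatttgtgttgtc

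Among proteins of the catalytic core, the gene of L3, which reaches toward the peptidyl transferase centre, had the strongest member peak. The rpl-3 (WBGene00004414) peak spanned 158 bp on chromosome III from 3867487 to 3867644 in intergenic sequence, with its summit 282 bp upstream of the start. Its pooled signal was 115.2 (rank 4), and it had 82.27 in replicate 1 (rank 3) and 33.26 in replicate 2 (rank 7). Both replicates thus placed this promoter near the top of their own lists. The other members assigned to this centre were far weaker. The rpl-10 region had a pooled signal of 3.124 at rank 26658, with 2.713 in replicate 1 and no overlapping region in replicate 2, and its summit was nearer to ints-11. No pooled region lay in the window of rpl-2, although each replicate list had a weak one, at 2.067 in replicate 1 and 2.593 in replicate 2.

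Proteins at the exit tunnel gave 3 thresholded peaks among 9 members, at rpl-35, rpl-31 and rpl-39, and 7 members had some region. The rpl-35 (WBGene00004449) peak on chromosome III from 7854527 to 7854842 lay 449 bp upstream, with a pooled signal of 77.31 (rank 11), 51.08 in replicate 1 (rank 12) and 26.72 in replicate 2 (rank 13). The rpl-31 peak, 256 bp upstream, had 23.53 in the pooled list, 15.71 in replicate 1 (rank 351) and 7.684 in replicate 2 (rank 476). Its summit lay only 49 bp from sac-2, so it was nearer to that gene. The rpl-39 peak, 231 bp upstream, had 21.14 in the pooled list and 17.52 in replicate 1 (rank 282), but 3.3 in replicate 2 (rank 6441). This promoter window was shared with rps-30 and C26F1.3, and the summit lay in annotated non-coding genes. Below the threshold, rpl-25.2 had a signal of 13.24, rpl-17 had 13.02, rpl-4 had 12.81 and rpl-26 had 4.538. The summits given to rpl-17, rpl-4 and rpl-26 were nearer to aps-3, B0041.8 and cpf-1, in that order. No pooled region was found for rpl-19 or rpl-25.1.

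The 5S ribonucleoprotein, in which L5 and L11 carry the 5S ribosomal RNA, was represented by rpl-5, rpl-11.1 and rpl-11.2, and all 3 had a region. In mammals these proteins also bind MDM2 when ribosome assembly is impaired. The rpl-11.2 peak on chromosome X, 362 bp upstream of the start, had a pooled signal of 35.12 (rank 140), with 19.26 in replicate 1 (rank 231) and 16.04 in replicate 2 (rank 75). The rpl-5 peak on chromosome II, 390 bp upstream, had 29.48 (rank 213), with 16.17 in replicate 1 (rank 336) and 12.27 in replicate 2 (rank 158). Both peaks were therefore in the top 530 regions of each replicate. The paralog rpl-11.1 had only a relaxed region of signal 4.771 (rank 11532), 771 bp upstream in a coding exon of T22F3.2, with 3.659 in replicate 1 and no overlapping region in replicate 2.

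The ribosomal stalk had 1 thresholded peak among its 4 members. That peak belonged to rpl-12, whose product sits at the base of the stalk, and it lay on chromosome IV from 13240531 to 13240846, only 38 bp upstream of the start. Its pooled signal was 43.43 (rank 68), with 21.6 in replicate 1 (rank 172) and 20.1 in replicate 2 (rank 35), and its window was shared with lin-54, the gene of a DNA-binding subunit of the DREAM complex. The stalk proteins proper, P0, P1 and P2, are encoded by rla-0, rla-1 and rla-2, and none of the 3 had a thresholded peak. For rla-0 the pooled signal was 3.481 at rank 22355, with 2.431 in replicate 1 and no overlapping region in replicate 2. Neither rla-1 nor rla-2 had a pooled region; replicate 1 alone had a weak one near rla-1, at 3.052.

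The other 31 members gave 12 thresholded peaks, and 29 of them had some region. The strongest were at rpl-15, which encodes an RNA-binding protein of the subunit's core, and rpl-20. The rpl-15 peak on chromosome IV from 654849 to 654992 had a pooled signal of 89.27 (rank 6), with 53.39 in replicate 1 (rank 9) and 34.59 in replicate 2 (rank 4). The rpl-20 peak on chromosome IV from 4750008 to 4750092 had 76.17 (rank 12), with 60.39 in replicate 1 (rank 6) and 14.7 in replicate 2 (rank 101). The summit was 292 bp upstream of rpl-20 but only 170 bp from the divergent gene Y17G9B.5. Next came rpl-36 on chromosome III, with 37.21 in the pooled list, 31.02 in replicate 1 (rank 53) and 5.408 in replicate 2 (rank 1331). That summit was 417 bp from rpl-36 and 246 bp from rps-14, so 1 peak stood for a large-subunit and a small-subunit gene.

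Several of the remaining peaks in this group were of similar strength in the pooled list and differed in how the replicates ranked them. The rpl-14 peak, on chromosome I, had 24.34 in the pooled list, 14.22 in replicate 1 (rank 424) and 8.013 in replicate 2 (rank 412). The rpl-22 peak had 23.17, with 13.51 in replicate 1 (rank 468) and 6.725 in replicate 2 (rank 690), and lay nearer to ify-1, the securin gene. The rpl-23 peak had 22.1, with 13.16 in replicate 1 (rank 491) and 7.281 in replicate 2 (rank 559). These 3 ranked alike in the 2 replicates. Others did not. The rpl-43 peak, whose summit was 739 bp from rpl-43 and 182 bp from Y48B6A.1, had 25.14 in the pooled list, 20.16 in replicate 1 (rank 210) and 4.069 in replicate 2 (rank 3396). The rpl-29 peak had 19.04, with 15.27 in replicate 1 (rank 371) and 3.185 in replicate 2 (rank 7120). In the opposite direction, rpl-41.2 had 21.34 in the pooled list, 9.384 in replicate 1 (rank 925) and 11.86 in replicate 2 (rank 172).

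Replicate 2 also ranked rpl-38 and rpl-1 higher than replicate 1 did. The product of rpl-38 is known in mice for its part in axial patterning, and that of rpl-1 forms the mobile arm beside the exit site for transfer RNA. The rpl-38 peak had 20.91 in the pooled list, 9.549 in replicate 1 (rank 897) and 10.53 in replicate 2 (rank 234). The rpl-1 peak had 19.37, with 10.78 in replicate 1 (rank 701) and 7.728 in replicate 2 (rank 467). The weakest thresholded member, rpl-24.2, had 18.79, with 13.08 in replicate 1 (rank 501) and 4.864 in replicate 2 (rank 1879), and its summit lay in an intron of C03D6.1.

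**Figure D2:**
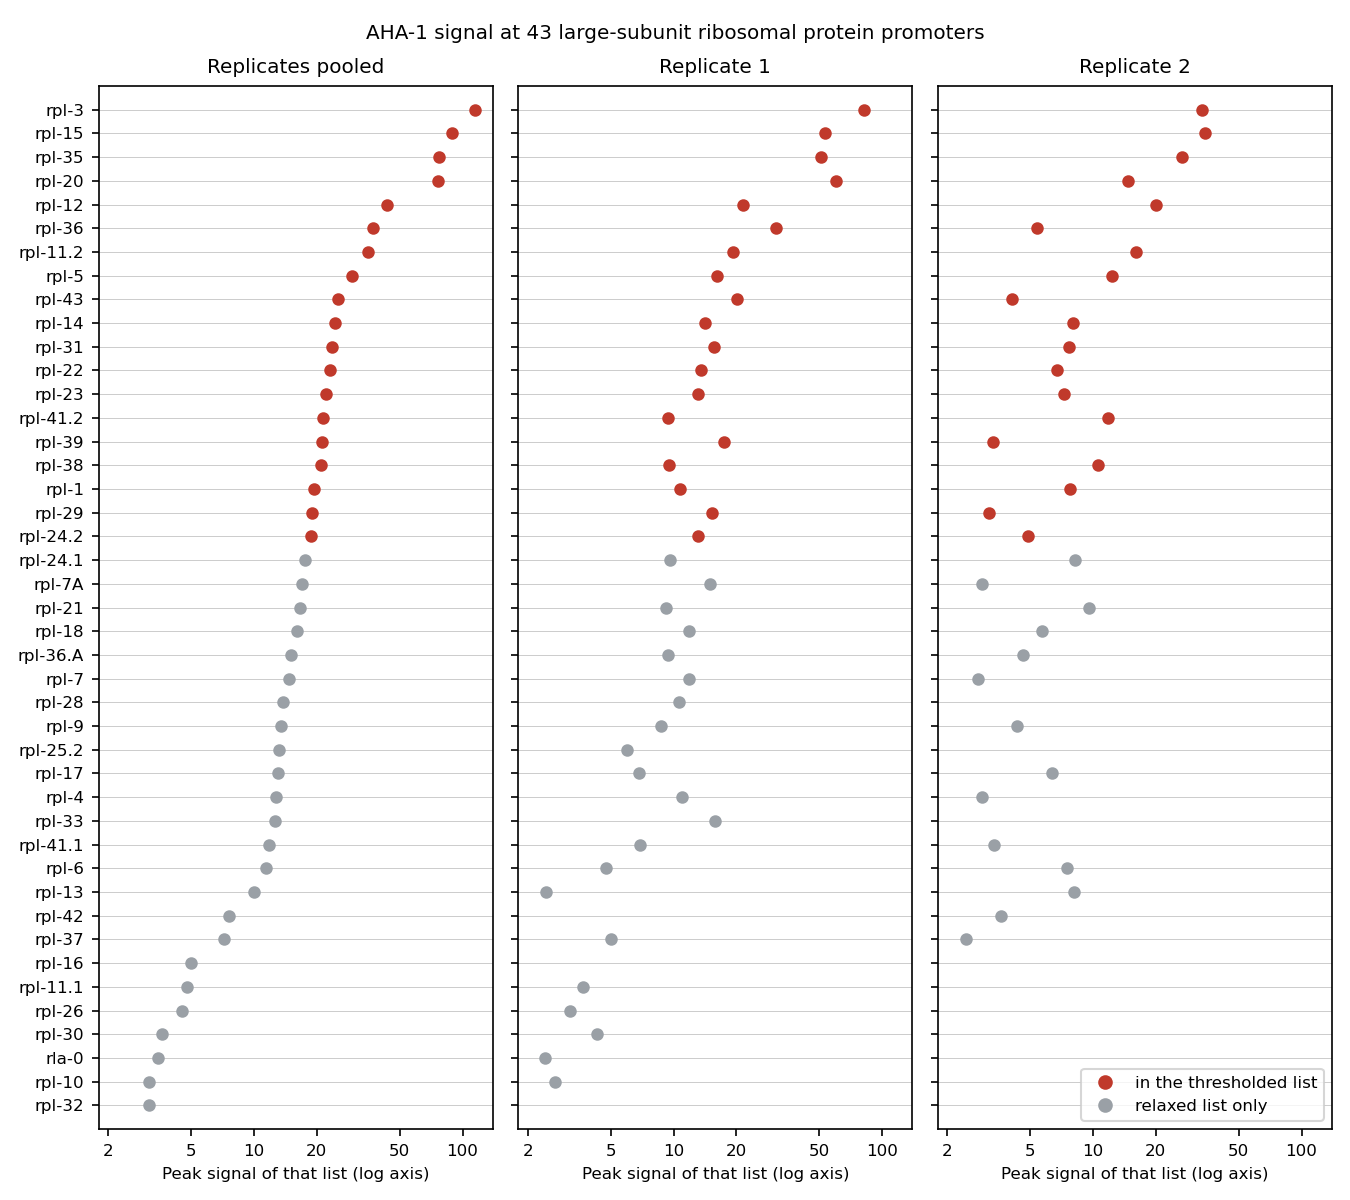
Peak signal (x axes, log scale, on each list's own scale) is plotted for the 43 members with a pooled region (y axis, ordered by pooled signal), in the pooled list and in each replicate; an absent point means no overlapping region in that replicate. The 19 thresholded members have points in all 3 panels, whereas 10 of the 24 other members lack one in replicate 2, and rpl-3, rpl-15 and rpl-35 stand at the right in each panel. The thresholded list was itself drawn from these replicates.

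Across the lists of the single replicates, the top 530 regions of replicate 1 included promoters of 18 members (36%), against 2.63% of all protein-coding genes. The top 530 regions of replicate 2 included those of 16 members (32%), against 2.31% of all protein-coding genes. In both replicates at once this held for 9 members (18%) and for 1.36% of all protein-coding genes. These 9 were rpl-3, rpl-15, rpl-35, rpl-20, rpl-12, rpl-11.2, rpl-5, rpl-14 and rpl-31. All 19 thresholded member peaks overlapped a region of each replicate, as did 341 of the 358 other thresholded promoter peaks. None of the 19 was outside the top 530 regions of both. The thresholded list was drawn from these same 2 replicates, so such overlap is in part built in. Replicate 1 placed 16 of them in its top 530, and replicate 2 placed 12. Summits were stable to within a median of 8 bp in replicate 1 and 18 bp in replicate 2, with largest shifts of 68 bp and 54 bp.

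The share of peaks that both replicates ranked highly was close between member peaks and the rest. Among thresholded promoter peaks, 9 of 19 with a member (47.4%) were in the top 530 of both replicates, and so were 175 of 358 without a member (48.9%). Spearman's rho between the signals of the replicates was 0.451 over the 19 member peaks and 0.282 over the 341 other peaks that both replicates overlapped. These are descriptions across peaks of 1 pair of libraries, within a list already chosen for strength. The 24 members below the threshold were overlapped by a region in 21 cases in replicate 1 and in 14 cases in replicate 2.

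**Figure D3:**
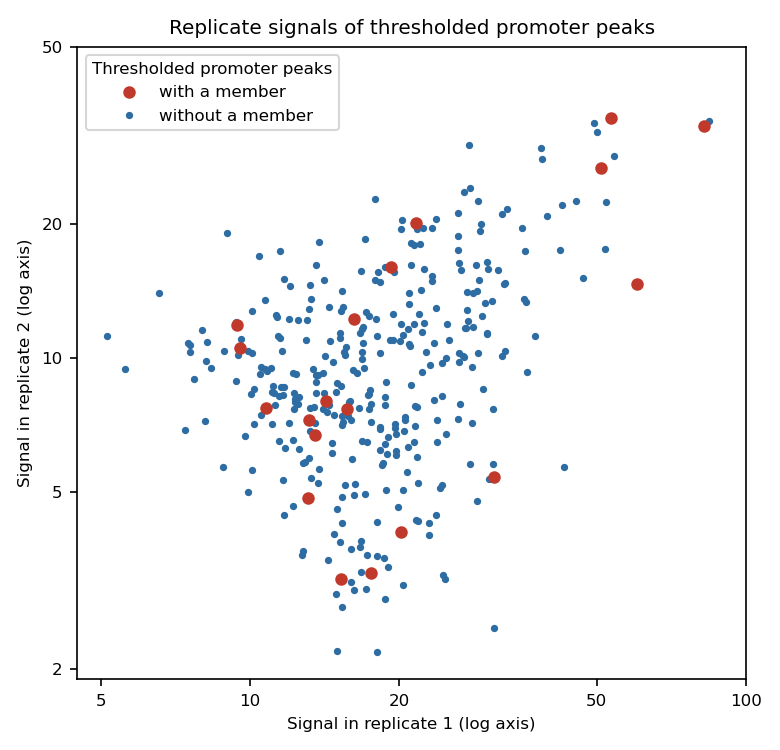
Signal in replicate 2 (y axis, log scale) is plotted against signal in replicate 1 (x axis, log scale) for thresholded promoter peaks that both replicates overlapped, 19 with a member and 341 without. The kinds of peak overlap in range, with Spearman's rho of 0.451 for peaks with a member and 0.282 for peaks without, and rpl-3, rpl-15 and rpl-35 are at the upper right.

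Below the threshold the strongest regions were at rpl-24.1, rpl-7A, rpl-21, rpl-18 and rpl-36.A. The rpl-24.1 region had 17.5 in the pooled list, 9.59 in replicate 1 and 8.207 in replicate 2, and it was shared with rps-10. The rpl-21 region had 16.65 in the pooled list, 9.178 in replicate 1 (rank 966) and 9.52 in replicate 2 (rank 284). For rpl-18 the pooled signal was 16.03, and for rpl-36.A, whose summit was nearer to the mitochondrial complex I gene nuo-1, it was 15.11. These signals ran from 17.5 (rank 573) down to 15.11 (rank 739), against 18.79 (rank 507) for the weakest thresholded member. In between, rpl-28 had 13.72, rpl-9 had 13.43, rpl-6 had 11.35 and rpl-37 had 7.153. The rpl-33 region, with 12.61 in the pooled list, was found by replicate 1 alone (15.86, rank 347). For rpl-13, with 9.981, the order was the other way, with 2.453 in replicate 1 (rank 18865) and 8.137 in replicate 2 (rank 403). The rpl-42 region, with 7.608, was the only member summit downstream of its start, 179 bp into the gene in its coding exon. The weakest regions were at rpl-26, rpl-30, rla-0, rpl-10 and rpl-32, with pooled signals from 4.538 down to 3.119. That range lies around the median of 4.266 over all 30000 regions or below it, and none of the 5 was overlapped in replicate 2.

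The 7 members without any pooled region were rla-1, rla-2, rpl-2, rpl-19, rpl-25.1, rpl-27 and rpl-34. Of these, rla-1, rpl-25.1 and rpl-27 begin within 150 bp of the end of a gene on the same strand, an arrangement in which a gene may be a downstream member of an operon. The 4 members in this arrangement, the other being rpl-16, had no thresholded peak, and 1 of the 4 had a region, that of rpl-16 with a signal of 4.977 and no overlap in either replicate. Over the other protein-coding genes in this arrangement, 1.91% had a thresholded peak and 39% had a region. The other 46 members were split between 31 whose upstream neighbour runs in the opposite direction within 1000 bp and 15 in neither arrangement. Thresholded peaks were found at 11 of the 31 (35.5%) and 8 of the 15 (53.3%), against 6.05% and 1.7% of other protein-coding genes in the same arrangements. These classes were drawn after values of the members had been seen. Whether any of these genes lies in an operon, and whether that bears on the missing regions, was not tested.

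Gene pairs with like symbols differed to varying degrees. The 2 rpl-24 genes lay on either side of the threshold, at 18.79 for rpl-24.2 and 17.5 for rpl-24.1. For rpl-11, rpl-11.2 had 35.12 and rpl-11.1 had 4.771. For rpl-25, rpl-25.2 had 13.24 in the pooled list and 5.998 in replicate 1, with no overlapping region in replicate 2, while rpl-25.1 had none. The tandem genes rpl-41.1 and rpl-41.2 start at bases 4789190 and 4790292 of chromosome I, and each had its own region about 280 bp upstream, at 279 bp for rpl-41.1 and 281 bp for rpl-41.2. The signal was 21.34 for rpl-41.2 and 11.78 for rpl-41.1, and the 2 summit windows reached at most 33.3% identity over 63 aligned bases. The names rpl-7 and rpl-7A belong to unrelated proteins, and their signals were 14.7 for rpl-7 and 16.98 for rpl-7A. Both had a far better rank in replicate 1, where rpl-7 was at 587 and rpl-7A at 385, than in replicate 2, where rpl-7 was at 9686 and rpl-7A at 8689.

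Where the summits lay relative to the start was more uniform than their strength. The median position of the 19 thresholded member summits was 282 bp upstream, with quartiles at 376 and 255 bp upstream, and 16 of the 19 (84.2%) were between 450 and 200 bp upstream. The exceptions were rpl-43 at 739 bp, rpl-24.2 at 143 bp and rpl-12 at 38 bp. Over the other 527 genes with a thresholded peak the median was 240 bp upstream, with quartiles at 453 and 138.5 bp, and 33.2% were in the same interval, which was chosen after the member positions had been seen. The members below the threshold had a median position of 282.5 bp upstream.

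Annotated starts in C. elegans are often sites of trans-splicing, where a spliced leader is joined to the transcript at an AG and the first bases of the primary transcript are lost. Directly before the start, an AG was found for 41 of the 50 members and for 27.6% of all protein-coding genes, and the fuller acceptor word TTTCAG for 25 members and 12.3% of all. The median distance from the annotated start to the first coding base was 6.5 bp over the members. Split in this way, the other genes with a thresholded peak had a median summit position of 291 bp upstream where an AG preceded the start (n = 245) and 185 bp upstream where none did (n = 282). The thresholded members had 281.5 bp with an AG (n = 16) and 401 bp without (n = 3). The member summits thus lay about as far upstream as those of other genes whose start follows an AG, in a comparison made after the positions had been seen.

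**Figure D4:**
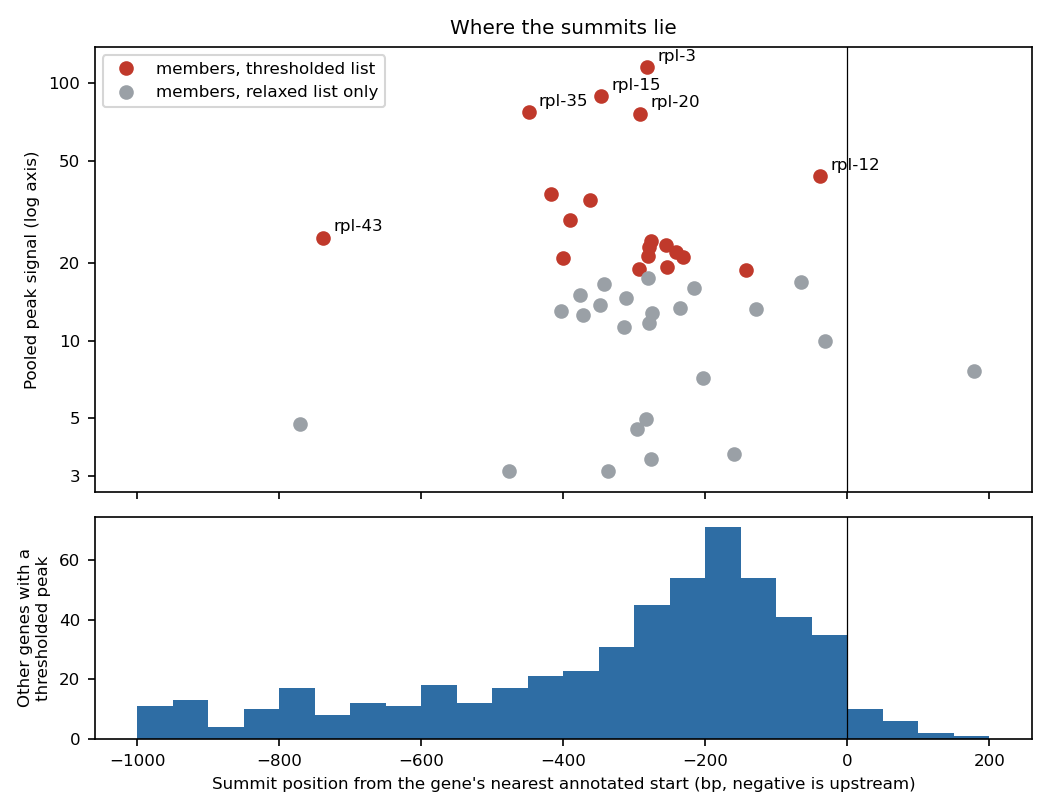
The upper panel plots pooled signal (y axis, log scale) against summit position from the gene's nearest annotated start (x axis, bp, negative upstream) for the 19 thresholded members and the 24 with a relaxed region only; the lower panel is a histogram of the same positions for the 527 other genes with a thresholded peak. Of the thresholded members, 16 of 19 fall between 450 and 200 bp upstream, whereas the histogram has its tallest bars closer to the start and a long tail upstream.

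Many member promoters lay close to another gene. An upstream neighbour on the opposite strand within 1000 bp was found for 62% of members and 21.2% of other protein-coding genes. Other genes shared peaks too, since the 527 with a thresholded peak had only 368 distinct strongest peaks. Of the 19 thresholded peaks, 12 also lay in the window of another protein-coding gene, and 5 were nearer to that gene than to the member. For the 24 members below the threshold, 16 regions were shared in this way and 9 were nearer to the other gene. The thresholded summits were in intergenic sequence at 16 members, in non-coding genes or pseudogenes at 2 and in an intron at 1. The neighbours included other ribosomal genes, rps-14 beside rpl-36 and rps-30 beside rpl-39. Below the threshold they included rps-10 beside rpl-24.1, and beside rpl-28 the mitochondrial ribosomal protein gene mrpl-49, which lies on chromosome V. Which gene of a pair the bound factor serves cannot be told from these lists. A count of only those summits nearest to the member gave 14 thresholded members.

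The bHLH-PAS words were about as frequent in member peaks as in other promoter peaks. Within 50 bp of the summit, ACGTG or GCGTG was found on either strand in 9 of 19 member peaks (47.4%), in 42.2% of 358 other thresholded promoter peaks, and in 21.1% of the 38 windows lying 400 bp to either side of the member summits. Among regions below the threshold the shares were 29.2% for 24 members and 17% for 9116 other promoter regions. The word was GCGTG in 7 member peaks (36.8%), against 28.8% of the other promoter peaks, and ACGTG in 3 (15.8%), against 17%, with rpl-43 holding both. The palindrome CACGTG, which contains ACGTG on each strand, was present in 1 member peak, that of rpl-14, and in 3.35% of the others.

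The position of GCGTG set the member peaks apart by count from other promoter peaks, in a comparison made after the values had been seen. In all 7 member peaks with GCGTG, those of rpl-3, rpl-15, rpl-35, rpl-20, rpl-43, rpl-23 and rpl-38, a copy was centred within 10 bp of the summit, at a median distance of 4 bp. In the other promoter peaks 32 of 358 (8.94%) had GCGTG that close, and the median distance where it occurred was 16 bp. For 14 thresholded peaks at small-subunit promoters, 2 of them shared with a member, the count was 1 (7.14%). The 7 member peaks with GCGTG had a median signal of 76.17, against 23.35 for the 12 without, of which the highest was rpl-12 at 43.43. With either ACGTG or GCGTG, the median of the 9 member peaks was 25.14, against 23.35 for the 10 without. Among other promoter peaks the medians for GCGTG were nearly equal, 27.01 with the word and 26.63 without. The member difference came from the 4 strongest peaks, since rpl-43, rpl-23 and rpl-38 had 25.14, 22.1 and 20.91.

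Among all words of 6 bases, each counted on both strands, GAGACC was the most frequent in member peaks and was picked out for that reason. It was found in 9 of 19, or 47.4%, at rpl-3, rpl-36, rpl-14, rpl-31, rpl-23, rpl-41.2, rpl-39, rpl-38 and rpl-29. It occurred in 11.7% of the other thresholded promoter peaks, in 5.26% of the member flanks, in 6 of 24 member regions below the threshold (25%) and in 1 of 12 small-subunit peaks not shared with a member (8.33%). The word AGACCC, which overlaps it by 5 bases, was found in 8 member peaks and 8.38% of the others. CCGTAG, named after the counts had been seen, was found in 6 member peaks (31.6%), at rpl-3, rpl-15, rpl-11.2, rpl-43, rpl-14 and rpl-29. It occurred in 3.35% of the other promoter peaks and none of the flanks. Of member regions below the threshold 12.5% held it, and of the 12 small-subunit peaks 8.33%. Some words not followed further were in more member peaks, among them ACACTC and ACCGTA, each in 7 (36.8%). These were found in 11.5% and 10.3% of the other promoter peaks, and each in 33.3% of the 12 small-subunit peaks. GAGACC and the ACGTG or GCGTG word occurred together in 4 member peaks, and 5 had neither. No factor is assigned to these words or to AGTGTA here, and with so many words counted, single shares of this kind are descriptions.

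The summit windows were richer in G and C than their surroundings. Median G+C content was 51.5% in the member peaks and 49.5% in other thresholded promoter peaks, against 35.6% in the member flanks. The member regions below the threshold had 45%, against 35.6% for other promoter regions below it. The mean number of CpG dinucleotides per 101 bases was 8.42 in member peaks, 7.97 in other promoter peaks and 3.97 in member flanks. GAGAGA was present in 21.1% of member peaks and 22.3% of the others, and AGATAA or TGATAA in 10.5% and 5.87%. The splice acceptor word TTTCAG was in 5.26% of member peaks and 28.9% of their flanks.

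**Figure D5:**
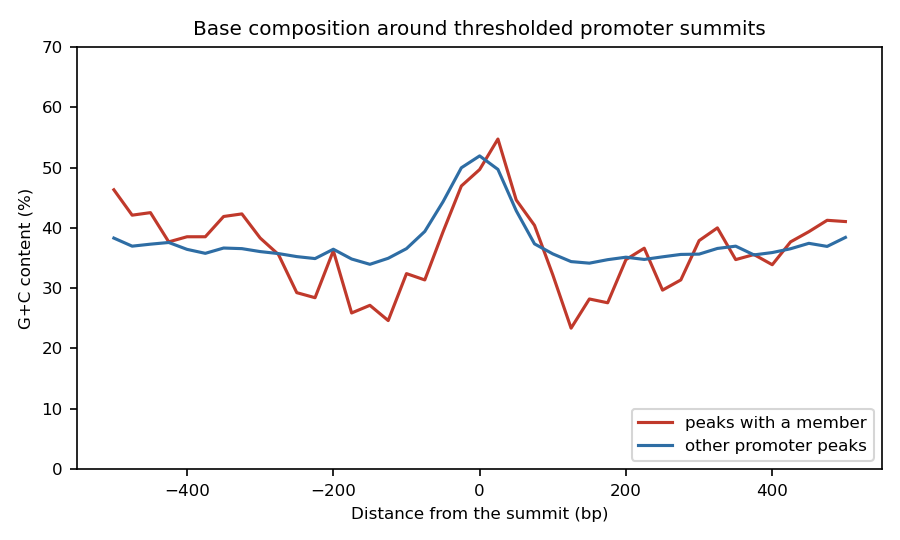
Mean G+C content (y axis, percent) in steps of 25 bp is plotted against distance from the summit (x axis, bp) for 19 thresholded peaks with a member and 358 other thresholded promoter peaks. Member peaks have 54.74% at 25 bp on one side of the summit and other promoter peaks 51.94% at the summit, and both lines drop within 100 bp.

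Small-subunit genes gave values near those of the large subunit. Thresholded peaks were found at 19 of 50 large-subunit promoters (38%) and 14 of 31 rps promoters (45.2%), and a region of any strength at 86% and 93.5%. Over all protein-coding genes these shares were 2.73% and 43.3%. The lists are not fully separate, since the peaks of rps-14 and rps-30 are those of rpl-36 and rpl-39. The rps-10 region is likewise that of rpl-24.1. The median signal of those with a region was 16.65 for the large subunit and 17.5 for the small subunit. Summits of the 14 thresholded rps peaks had a median position of 275 bp upstream, and 78.6% were between 450 and 200 bp upstream. The mitochondrial large-subunit genes, symbols mrpl, make up the ribosome inside mitochondria and had 5 thresholded peaks among 41 (12.2%), with a median signal of 7.059 for those with a region. No test of these differences was run, since the lists were chosen with results of these data known.

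The members were spread over all 6 chromosomes. Thresholded peaks were found at 5 of 17 members on chromosome I, 3 of 9 on II, 4 of 9 on III, 4 of 8 on IV, 2 of 5 on V and 1 of 2 on X. Over all protein-coding genes the shares with a thresholded peak were between 1.7% on V and 5.19% on III. Inside 8 members lay 12 annotated small nucleolar RNA genes, RNAs that guide the modification of ribosomal RNA. A single thresholded member was among those 8, rpl-15 with 2 of them, while 6 of the 24 members with only a relaxed region and 1 of the 7 without a region held the others.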

How the data were processed

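Peak lists on the ce11 assembly were used for AHA-1 ChIP-seq of 2 replicates of L1 larvae; fragments of 150 to 350 bp were selected, per the labels. The authors deposited relaxed lists of peaks and background for each replicate and for the pooled reads, each made against a control, and a pooled list thresholded by the irreproducible discovery rate, per the descriptive text deposited with them. The value used is the deposited signal of each region, relative to a control as the authors' peak caller wrote it, with no stated scale. Which aligner, peak caller and threshold were used, and how many reads were obtained, was not given in the sources used here. Control reads were not analysed here. The lists held 30000 pooled, 24611 replicate 1 and 18195 replicate 2 regions, and the 530 thresholded peaks (median width 316 bp) were exactly the strongest pooled regions.

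Genes came from Ensembl release 115 and sequence from RefSeq, both on this build, and coordinates are 1-based. A gene's value is its strongest pooled region with a summit 1000 bp upstream to 200 bp downstream of any annotated start. A replicate value is the strongest region of that replicate overlapping it by at least 1 bp. Words were sought within 50 bp of a summit and 400 bp to either side, on both strands except for the splice acceptor word TTTCAG. Assignment was checked on planted summits. Members, lists and words were chosen with earlier results of these data known, so shares stand beside those of all protein-coding genes and no test was run. All members are accounted for; thresholded members, gene pairs, the 5 strongest and 5 weakest relaxed regions and members without a region are named, and sequences come from the strongest peaks outside untranslated regions, with one chromosome left out; 1 further sequence is not reported here. Python 3.11.15, NumPy 2.4.6, SciPy 1.17.1 and Matplotlib 3.10.9 were used.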

Additional observations from a re-analysis of the deposited data

How the results depend on the processing

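The count of 19 members with a thresholded peak was 18, 19, 19, 14 and 19 with a window of 500 bp upstream to 100 bp downstream, a window of 2000 bp to 500 bp, only the outermost start, only the gene with the nearest start, and any overlap in place of the summit. The shares of all protein-coding genes were 2.14%, 3.44%, 2.59%, 1.87% and 2.92% in the same order. With the stronger 265 of the 530 peaks the member count was 8, against 1.34% of all protein-coding genes, because fewer peaks were counted. For a single replicate, its top 530 regions were counted in place of thresholded peaks. This gave 16 members without replicate 1 and 18 without replicate 2, against 2.31% and 2.63% of all protein-coding genes. The count of 43 members with a region, against 43.3% of all protein-coding genes, was between 31 and 44. It was 31 with the nearest start only, against 36.6% of all protein-coding genes. With the window of 2000 bp to 500 bp it was 44, against 61.9%. Without replicates 1 and 2 it was 35 and 43, against 28.9% and 37.7%. The median signal of 16.65 was 6.725 without replicate 1 and 10.78 without replicate 2, on each list's own scale. The count of 9 members in the top of both replicates was 16 with 1060 top regions per replicate, against 2.31% of all protein-coding genes. The share of 47.4% with ACGTG or GCGTG was 42.1% within 25 bp and 57.9% within 100 bp, and 50% and 44.4% without replicates 1 and 2. The median position of 282 bp upstream (-282) was -306 without replicate 1 and -277.5 without replicate 2. The alternatives without a replicate for signal, words and position were added after the data had been seen. No paired analysis was possible because there was only 1 group. Read depth is unknown, and 2 replicates give only a rough measure of the spread between samples.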

Other observations

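Genes that act on ribosomes from outside the particle were looked at beside the large-subunit genes, of which 38% had a thresholded peak. Of 26 genes listed under ribosome biogenesis, 4 had one (15.4%), against 2.73% of all protein-coding genes, and 20 had some region (76.9%), against 43.3%. Not all of the listed genes process ribosomal RNA or assemble subunits, and 4 further symbols of the list matched no gene. The strongest was at larp-1, whose mammalian counterpart binds messenger RNAs of ribosomal proteins, with a pooled signal of 62.9 (rank 20), 39.7 in replicate 1 and 20.86 in replicate 2, in a window shared with wip-1. Next came nol-58, a protein of the snoRNA particles that methylate ribosomal RNA, with 27.88, 18.05 in replicate 1 and 11.23 in replicate 2. The helicase gene ruvb-2 had 18.87 and the fibrillarin gene fib-1 had 18.56, with 12.78 in replicate 1 and 3.69 in replicate 2. No region was found for byn-1, dao-5, lpd-6, ngp-1, pro-2 or rpoa-12.

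Of 11 genes that link growth signals to ribosome production, 2 had a thresholded peak (18.2%), against 2.73% of all protein-coding genes, and 6 had some region (54.5%), against 43.3%. They were mdl-1, a MAD-like partner in the MXL network, with a pooled signal of 24, 17.33 in replicate 1 and 8.306 in replicate 2, and the small GTPase gene rheb-1, with 19.63, 7.385 in replicate 1 and 6.898 in replicate 2, in a window shared with spk-1. The TOR kinase gene let-363 and the S6 kinase gene rsks-1 had no pooled region, nor had mml-1, mxl-1 or raga-1.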
